A study of Homo sapiens with 6 samples.

Results

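Integrin subunits of fibroblasts were followed as 10 genes, ITGA1, ITGA2, ITGA3, ITGA5, ITGA6, ITGA11, ITGAV, ITGB1, ITGB3 and ITGB5, of the 63129 genes in the expression table. They are α and β chains known from connective tissue cells and were taken by symbol, from a list drawn up with earlier results of these data known. Each symbol had 1 row, no member lay in a row with surplus values, and all 10 had a mean of at least 1 FPKM (a fragment count scaled to transcript length and library depth), the level required for testing. The 10 genes are part of a family of 26 human integrin subunits, and the other 16 were read as a comparison list.

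Integrins are heterodimers of 1 α and 1 β chain that span the plasma membrane, bind extracellular matrix outside the cell and link through talin, kindlin and vinculin to actin inside it. The α chain largely sets the ligand: α1, α2 and α11 bind collagens, α3 and α6 bind laminins, and α5 and αV bind proteins with an Arg-Gly-Asp (RGD) motif such as fibronectin and vitronectin. All 7 α members can pair with β1, and αV pairs also with β3 and β5. Cells entering mitosis take down most focal adhesions and round up, and a set of integrin contacts that remains guides spreading after division.

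The cells were IMR90, a diploid human lung fibroblast line, carrying a retroviral oestrogen receptor fusion of oncogenic RasV12 (ERRAS cells) that tamoxifen activates. The 3 uninduced libraries came from cells without tamoxifen, and the 3 induced libraries from cells with RasV12 switched on for 4 days with 100 nM tamoxifen. That agent and dose are those of the sample labels, and the methods of the study name 4-hydroxytamoxifen at a dose in another unit. Every library in both groups carried the construct, grew in medium with 20% fetal calf serum, glutamine, Pen-Strep and G418 at 3% oxygen, and was arrested in mitosis with 1 µM DME (dimethylenastron, an inhibitor of the spindle motor Eg5). Only unattached cells were collected, with a mitotic index above 90%, so the values describe detached mitotic cells of a single line. The study describes the experiment as independently repeated, but neither the labels nor the columns say which uninduced and induced libraries belong to the same repeat. The comparison asks which integrin chains differed when RasV12 was active in cells arrested in mitosis. Only the induced libraries had tamoxifen and no library lacked the construct, so effects of the agent and of RasV12 cannot be told apart.

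The libraries were checked first. All 8 fibroblast markers reached 1 FPKM, and their summed level was 4718 to 5326 FPKM in uninduced and 3131 to 4347 FPKM in induced libraries, with COL1A2 and THY1 lower. The other 6 did not pass the test, and of these FAP averaged 39.0 and 66.3 FPKM, VIM 2149 and 2248 FPKM, PDGFRA 52.9 and 48.8 FPKM, and COL1A1 1345 and 550.0 FPKM, in uninduced and induced libraries. Of 4 smooth muscle and myofibroblast markers, 3 were lower (ACTA2, CNN1 and TAGLN), and their sum was 823 to 1179 FPKM in uninduced against 203 to 344 FPKM in induced libraries. Of the epithelial markers EPCAM, CDH1, KRT5 and KRT14, only the keratins reached 1 FPKM as a mean over all libraries, with a summed list of 17.0 to 32.8 FPKM in uninduced and 19.6 to 21.2 FPKM in induced libraries. Endothelial, leukocyte and platelet lists summed to under 1 FPKM in every library, and PECAM1, CD3E, PPBP and GP9 were listed at 0 throughout. HRAS averaged 1164 ± 20.3 FPKM (SD, n = 3) in uninduced and 1586 ± 227 FPKM (SD, n = 3) in induced libraries. Why it differed was not tested. Of 10 targets of ERK, the kinase downstream of Ras, 7 were higher, FOSL1 was lower and 2 were not altered. Of 6 mitotic genes, PLK1, BUB1 and TOP2A were lower, and the remaining 3 did not pass the test. The part of these shifts in the integrin values was not tested, and in bulk RNA fewer cells of a kind and less RNA per cell cannot be told apart.

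ITGA1 and ITGA2 lie next to each other on the same strand of chromosome 5 and moved in opposite directions, and ITGA6 and ITGAV were the other altered α members. For that reason the promoters of these 4 genes are given, from 250 bases before to 50 bases after a transcription start in RefSeq on GRCh38.p14. Of the 10 members, 8 had an entry in that promoter table, and ITGA3 and ITGB3 did not. The annotated start of ITGA1 on GRCh37 is also that of PELO, a gene that was not altered (limma adjusted p = 0.520). Capitals mark matches to a search for 4 motifs: AP-1 (TGANTCA), SP1 (GGGCGG) and ETS (CCGGAAGT) on both strands, and the TATA box (TATAAA) on the forward strand.
ITGA1, chr5:52787666-52787965, plus strand: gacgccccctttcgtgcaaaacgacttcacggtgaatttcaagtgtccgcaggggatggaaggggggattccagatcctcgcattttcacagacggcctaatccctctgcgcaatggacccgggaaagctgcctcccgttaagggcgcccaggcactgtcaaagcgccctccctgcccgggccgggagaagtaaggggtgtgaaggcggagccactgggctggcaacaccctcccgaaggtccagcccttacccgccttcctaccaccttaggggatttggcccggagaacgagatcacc
ITGA2, chr5:52989102-52989401, plus strand: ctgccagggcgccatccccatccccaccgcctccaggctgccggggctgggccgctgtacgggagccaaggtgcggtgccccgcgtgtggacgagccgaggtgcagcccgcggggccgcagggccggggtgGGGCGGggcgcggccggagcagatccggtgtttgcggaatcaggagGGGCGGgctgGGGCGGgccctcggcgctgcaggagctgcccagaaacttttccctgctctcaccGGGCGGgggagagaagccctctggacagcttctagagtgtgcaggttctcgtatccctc
ITGA6, chr2:172427336-172427635, plus strand: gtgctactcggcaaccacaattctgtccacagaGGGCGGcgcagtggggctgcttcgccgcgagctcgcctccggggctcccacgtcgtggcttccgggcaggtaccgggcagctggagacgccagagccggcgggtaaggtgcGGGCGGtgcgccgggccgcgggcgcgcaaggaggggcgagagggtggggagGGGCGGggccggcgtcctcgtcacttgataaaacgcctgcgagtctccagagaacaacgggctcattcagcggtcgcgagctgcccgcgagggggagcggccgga
ITGAV, chr2:186589806-186590105, plus strand: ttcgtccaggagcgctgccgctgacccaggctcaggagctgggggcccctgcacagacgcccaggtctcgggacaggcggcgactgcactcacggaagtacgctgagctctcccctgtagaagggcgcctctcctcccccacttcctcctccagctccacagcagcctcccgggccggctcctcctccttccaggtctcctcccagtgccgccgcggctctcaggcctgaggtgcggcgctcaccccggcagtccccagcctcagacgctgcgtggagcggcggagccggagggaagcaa

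All capitals in these windows are SP1 letters, with 4 matches in ITGA2, 3 in ITGA6, and 0 in ITGA1 and ITGAV. Among the members that were not altered, there was 1 match in ITGA5, 0 in ITGA11, 3 and 0 at the 2 starts of ITGB1, and 2, 2 and 3 at the 3 starts of ITGB5. A second ITGA6 window, further upstream, overlaps the one shown and held 1, the same site as the first of the 3, and a second ITGAV start held 0. Across the 35116 promoters of the table, 45.0% held at least 1 such match, so such a match is common. The AP-1 letters, present in 7.71% of promoters, were found among the members only in ITGA5, outside the windows shown. ETS letters (4.14% of promoters) were found only at 1 of 3 ITGB5 starts and TATA letters (7.33%) only at 1 of 2 ITGB1 starts. A match is a run of letters and not a shown binding site, and the windows without capitals say only that these letters are not there.

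RasV12 induction went with a changed set of integrin chains. Of the 10 members, 5 were altered, called in limma at 0.05 or less after Benjamini-Hochberg adjustment over the 13993 tested genes: ITGA2 and ITGA6 rose, and ITGA1, ITGAV and ITGB3 fell. Among all tested genes 16.7% were altered, with 11.0% higher and 5.67% lower. The groups did not overlap for 6 of the 10 members, the 5 altered ones and ITGB1, against 39.9% of all tested genes. The median log2 fold change of the members was -0.29, beside 0.10 over all tested genes. This count depended on single libraries: 5 members were also altered without uninduced library 3, but 3 without induced library 2, 2 without uninduced library 1, 1 without induced library 1, and 0 without uninduced library 2 or without induced library 3.

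**Figure D1:**
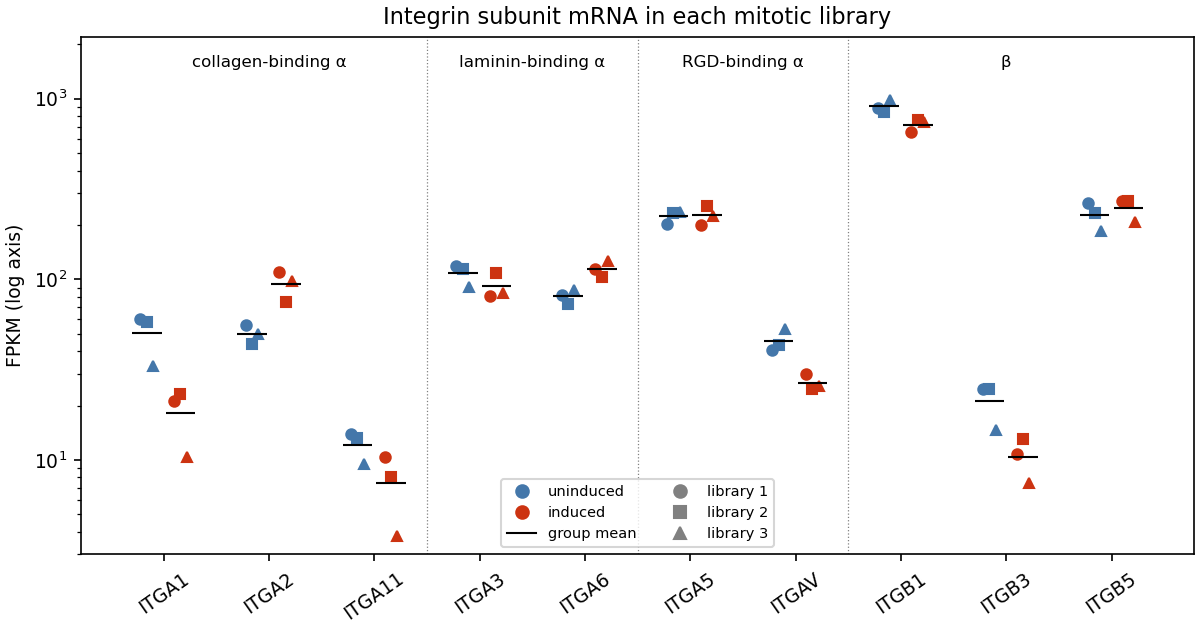
FPKM of the 10 integrin subunits on a log axis, with 1 point per library, uninduced in blue and induced in red, the library number as the marker shape and the group mean as a black bar. The blue and red points separate for ITGA1, ITGA2, ITGA6, ITGAV, ITGB1 and ITGB3, and ITGB1 stands above all other subunits in both groups.

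Among the collagen receptors, ITGA1 and ITGA2 went opposite ways. ITGA1 encodes the α1 chain, which with β1 binds collagen IV and other collagens. It measured 60.5, 57.7 and 33.2 FPKM in uninduced libraries 1 to 3 and 21.2, 23.3 and 10.4 FPKM in induced libraries 1 to 3. Every induced value lay below every uninduced value, and the library numbered 3 was the lowest of its group on both sides. The mean fell 2.76-fold, from 50.5 ± 15.0 to 18.3 ± 6.90 FPKM (SD, n = 3 per group), a log2 fold change of -1.44 with SE 0.35 (limma adjusted p = 0.0356). That was the largest change of any member. Its call held in 1 of the 6 fits that left out a library, the one without uninduced library 3, while the log2 fold change stayed between -1.71 and -1.10. It also missed the threshold without the filter on low values (limma adjusted p = 0.0992).

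ITGA2 encodes the α2 chain, whose β1 dimer is a main receptor for fibrillar collagen I. Its levels were 55.6, 43.9 and 50.0 FPKM in the uninduced libraries and 109.6, 74.5 and 98.4 FPKM in the induced ones. The induced libraries were all higher, without overlap, and induced library 2 was the closest to the uninduced range. The mean rose 1.89-fold, from 49.8 ± 5.84 to 94.2 ± 17.9 FPKM (SD, n = 3 per group), with a log2 fold change of 0.89, SE 0.16 (limma adjusted p = 0.0152). Leaving out uninduced library 2, induced library 1 or induced library 3 each ended this call, with log2 fold changes of 0.81, 0.78 and 0.85, as did leaving out both libraries numbered 3 (0.86, limma adjusted p = 0.142).

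ITGA11 encodes α11, a fibroblast collagen receptor that prefers fibrillar collagens. It was the least expressed member, at 13.9, 13.2 and 9.48 FPKM in uninduced and 10.4, 8.10 and 3.81 FPKM in induced libraries. Both groups shared the range between 9.48 and 10.4 FPKM, and library 3 was again the lowest on each side. The log2 fold change was -0.71 with a 95% interval of -1.49 to 0.06, which did not pass the test (limma adjusted p = 0.178). The value was -0.35 without induced library 3 and -0.98 without induced library 1.

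As the ITGA1 and ITGA2 changes were in opposite directions, their ratio was taken within each library, where scaling between libraries cancels. ITGA2 over ITGA1 was 0.919, 0.761 and 1.50 in uninduced libraries and 5.17, 3.20 and 9.45 in induced libraries. The 2 chains were thus at similar levels in uninduced cells, and ITGA2 exceeded ITGA1 in every induced library. The ratio was formed after these opposite shifts were seen, and since neither gene overlapped between groups its separation followed from them, so no test is given. The induced mean ratio was 5.94 ± 3.19 (SD, n = 3), so its size was known only loosely.

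On GRCh37, the build of the authors' alignment, GENCODE places ITGA1 at chr5:52083750-52255039 and ITGA2 at chr5:52285170-52390609, both on the plus strand with 30130 bases between them. ITGA1 shares its start with PELO, a ribosome rescue factor gene on the same strand, and 499 exonic bases belong to both. PELO measured 22.5 ± 2.90 FPKM in uninduced and 24.3 ± 1.75 FPKM in induced libraries (SD, n = 3 per group; limma adjusted p = 0.520). ITGA1 also has 1385 exonic bases opposite ITGA2-AS1, which reached at most 0.327 FPKM. The library kit is not a stranded one, so reads from opposite strands at such places cannot be told apart. The other members lie apart from each other: ITGA6 at chr2:173292082-173371187 and ITGAV at chr2:187454737-187545628 on the plus strand, ITGB3 at chr17:45331193-45391109 and ITGA3 at chr17:48133332-48167845 on the plus strand, and on the minus strand ITGB5 at chr3:124480795-124620265, ITGB1 at chr10:33176201-33294720, ITGA5 at chr12:54789045-54813050 and ITGA11 at chr15:68588870-68724502.

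**Figure D2:**
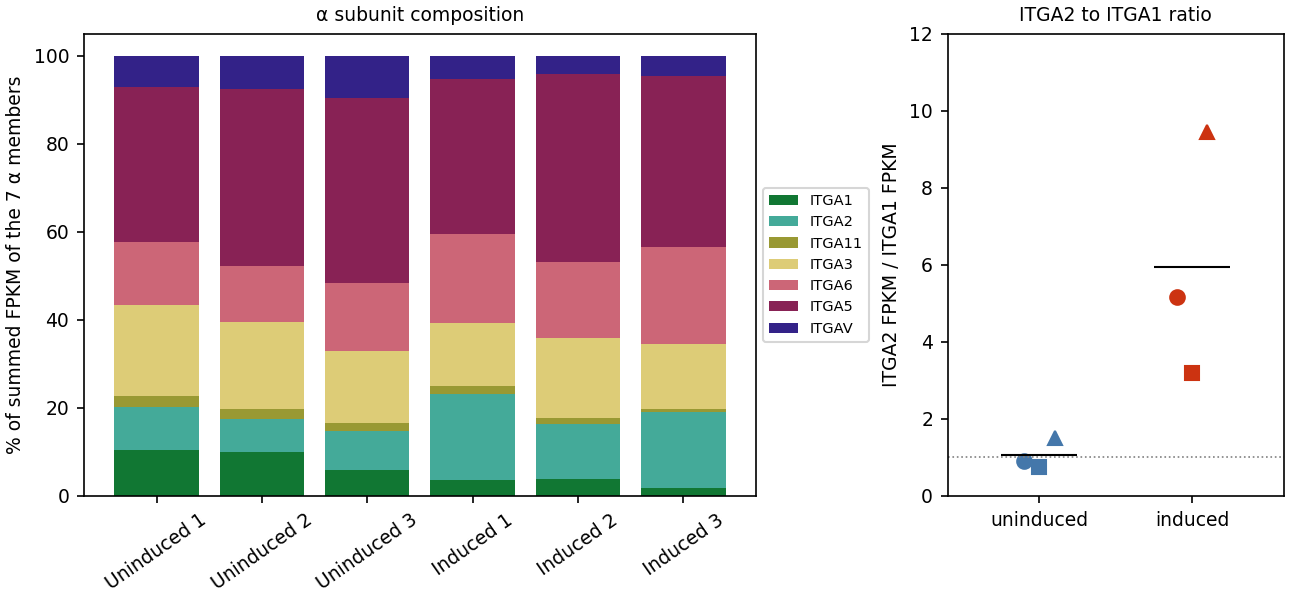
Left, each α member as a percentage of the summed FPKM of the 7 α members in each library. Right, the ratio of ITGA2 to ITGA1 FPKM per library with group means as black bars and a dotted line at a ratio of 1. The ITGA1 band narrows and the ITGA2 and ITGA6 bands widen in the induced libraries, and the ratio lies between 3.20 and 9.45 there against 0.761 to 1.50 in uninduced libraries.

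Of the laminin receptors, ITGA6 rose and ITGA3 did not pass the test. ITGA6 encodes α6, a receptor for most laminins when paired with β1 or β4. It stood at 82.0, 73.5 and 87.3 FPKM in uninduced and 114.7, 102.3 and 126 FPKM in induced libraries. No induced library fell within the uninduced range. The mean rose 1.41-fold, from 80.9 ± 6.97 to 114.3 ± 11.8 FPKM (SD, n = 3 per group), a log2 fold change of 0.49 with SE 0.11 (limma adjusted p = 0.0266). The direction was kept after quantile normalization and after scaling to a common upper quartile, but the call was lost, with limma adjusted p = 0.0555 and 0.0741. It was also lost without the filter on low values (limma adjusted p = 0.0605) and on removing uninduced library 1 or 2, or induced library 1 or 3. The exons of ITGA6 face 3 antisense RNAs over 174, 125 and 52 bases, none of which exceeded 4.31 FPKM.

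ITGA3 encodes α3, which binds laminin-332 and laminin-511. Values of 119, 114 and 91.2 FPKM in uninduced and 81.1, 108 and 84.3 FPKM in induced libraries overlapped, because induced library 2 lay among the uninduced ones. The log2 fold change was -0.24 with a 95% interval of -0.60 to 0.11 (limma adjusted p = 0.300). The β4 chain that α6 can take instead of β1 is made from ITGB4, and that gene averaged 0.671 FPKM in uninduced and 0.630 FPKM in induced libraries, under the level for testing.

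The RGD receptors differed between the 2 α chains. ITGAV, whose αV chain binds vitronectin, fibronectin and latent TGF-β, measured 40.7, 43.5 and 53.1 FPKM in uninduced and 30.0, 24.8 and 25.6 FPKM in induced libraries. All induced values were lower, without overlap. The mean fell 1.71-fold, from 45.8 ± 6.49 to 26.8 ± 2.77 FPKM (SD, n = 3 per group), with a log2 fold change of -0.75, SE 0.13 (limma adjusted p = 0.0125). ITGAV was altered in 11 of the 14 alternative fits, the most of any member, and was lost without uninduced library 2 or induced library 3 and without both libraries numbered 3. Its exons face 203 bases of an antisense RNA, ENSG00000227227, which measured 5.31, 4.97 and 6.50 FPKM in uninduced and 4.31, 3.85 and 2.19 FPKM in induced libraries. These were also lower in every induced library, and without strand the 2 genes' reads at the shared bases cannot be told apart.

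ITGA5, whose α5 chain makes the classical fibronectin receptor with β1, was the most abundant α chain. It measured 201, 234 and 235 FPKM in uninduced libraries and 199, 255 and 223 FPKM in induced libraries. The ranges overlapped almost fully. The log2 fold change of 0.01 had a 95% interval of -0.27 to 0.28 (limma adjusted p = 0.963), which leaves room for a change of up to 0.28 either way on that scale, and its sign turned with the scaling. ITGA5 supplied 39.2% of the summed α FPKM in uninduced and 39.0% in induced libraries.

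Of the β chains, ITGB3 fell, ITGB1 missed the threshold and ITGB5 did not pass. ITGB3 encodes β3, which in fibroblasts pairs with αV and in platelets with αIIb. Levels were 24.6, 24.7 and 14.7 FPKM in uninduced and 10.8, 13.1 and 7.47 FPKM in induced libraries. The groups came close but did not overlap, since uninduced library 3 at 14.7 FPKM lay just above induced library 2. The mean fell 2.04-fold, from 21.3 ± 5.72 to 10.5 ± 2.82 FPKM (SD, n = 3 per group), a log2 fold change of -0.96 with SE 0.26 (limma adjusted p = 0.0493). This call was the closest to the threshold and went without the mean-variance trend (limma adjusted p = 0.0637), without the filter on low values (limma adjusted p = 0.124) and in 5 of 6 fits that left out a library, all but the one without uninduced library 3.

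As both chains of the αVβ3 dimer fell, their ratio was also taken per library. ITGAV over ITGB3 was 1.65, 1.76 and 3.60 in uninduced and 2.77, 1.90 and 3.43 in induced libraries. This ratio, too, was chosen after the values were seen. The ranges overlapped. ITGB3 shares 2266 exonic bases with a readthrough gene on the same strand, ENSG00000259753, which has no value in the table. The platelet chain ITGA2B averaged 0.0525 FPKM in uninduced and 0.110 FPKM in induced libraries.

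ITGB1 encodes β1, the partner of all 7 α members. It measured 889, 840.3 and 984 FPKM in uninduced and 653, 761 and 742 FPKM in induced libraries. Every induced library was lower. The means were 905 ± 73.2 and 719 ± 57.7 FPKM (SD, n = 3 per group), and the log2 fold change of -0.33 had a 95% interval of -0.56 to -0.10, but the limma adjusted p of 0.0638 was above the threshold. It passed after quantile normalization (log2 fold change -0.43, limma adjusted p = 0.0278), with a common upper quartile (-0.44, limma adjusted p = 0.0377) and with a filter at a mean of 5 FPKM (limma adjusted p = 0.0482).

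The ITGB1 level carries a further uncertainty from a processed pseudogene. ITGB1P1, at chr19:14732446-14733054 on the minus strand of GRCh37, is 609 bases long and identical to the ITGB1 transcript at 609 of 609 bases, so reads there cannot be assigned to either by sequence. ITGB1P1 was given 324 ± 38.8 FPKM in uninduced and 248 ± 28.9 FPKM in induced libraries (SD, n = 3 per group), with a log2 fold change of -0.38 (limma adjusted p = 0.0826). The ratio of ITGB1P1 to ITGB1 was 0.329 to 0.372 over all 6 libraries and overlapped between the groups (exact permutation p = 0.4, with 0.1 the smallest possible). The 2 rows moved nearly together in these values, whichever of them the reads came from. How shared reads were divided between the rows bears on this ratio and was not tested.

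ITGB5 encodes β5, an αV partner that binds vitronectin. Values of 264, 234 and 186 FPKM in uninduced and 271, 271 and 207 FPKM in induced libraries overlapped. Library 3 was the lowest of its group on each side. The log2 fold change was 0.13 with a 95% interval of -0.26 to 0.52 (limma adjusted p = 0.602).

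**Figure D3:**
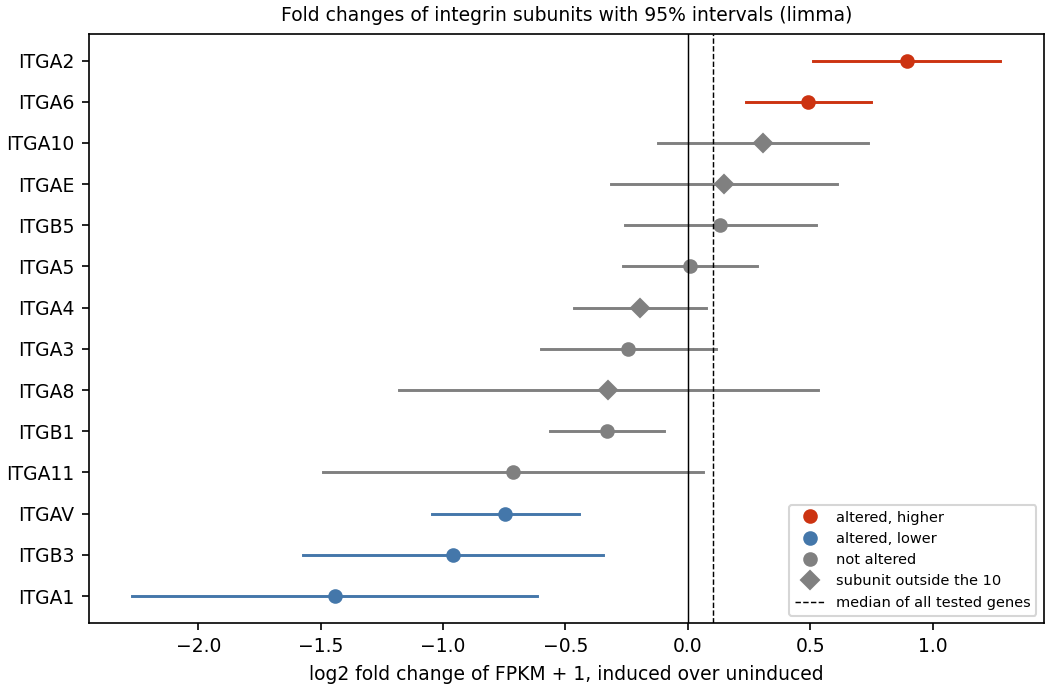
Log2 fold change of FPKM + 1, induced over uninduced, for the 10 members (circles) and the 4 other subunits above the filter (diamonds), with 95% intervals from limma, red or blue where altered. The dashed line is the median of all tested genes, 0.10, and the intervals of ITGA1, ITGAV and ITGB3 lie below 0 while those of ITGA2 and ITGA6 lie above it.

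FPKM is scaled by transcript length, so the levels can be ranked between genes. In uninduced cells ITGB1 came first at 905 FPKM, followed by ITGB5 (228 FPKM) and ITGA5 (223 FPKM), whose ranges overlapped. ITGA3 (108 FPKM) and ITGA6 (80.9 FPKM) came next, and each was separated from its neighbours. ITGA1, ITGA2 and ITGAV followed within 45.8 to 50.5 FPKM and could not be ordered beyond their spread, and ITGB3 and ITGA11 came last. In induced cells the first 3 places were the same. ITGA6 (114.3 FPKM), ITGA2 (94.2 FPKM) and ITGA3 (91.3 FPKM) then overlapped as neighbours, ITGAV stood alone at 26.8 FPKM, and ITGA1, ITGB3 and ITGA11 (18.3 to 7.45 FPKM) overlapped as neighbours at the end. ITGA2 thus moved from a level shared with ITGA1 and ITGAV to a level shared with ITGA3 and ITGA6.

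By ligand class, the shares of the summed α pool overlapped between the groups. Collagen-binding chains made up 19.7 ± 3.06% of the α FPKM in uninduced and 20.8 ± 3.71% in induced libraries (SD, n = 3 per group; exact permutation p = 0.7). Inside that class ITGA1 went from 8.82% to 3.16% of the α pool and ITGA2 from 8.73% to 16.4%. Laminin-binding chains were 33.1 ± 1.73% and 35.6 ± 1.14% (exact permutation p = 0.2, n = 3 per group), with ITGA6 at 14.2% and 19.8% and ITGA3 at 18.9% and 15.8%. RGD-binding chains were 47.2 ± 4.69% and 43.6 ± 3.20% (exact permutation p = 0.4, n = 3 per group). With 3 libraries a group no share could reach p below 0.1. ITGB1 made up 78.3 ± 4.10% of the 3 β members in uninduced and 73.4 ± 3.89% in induced libraries (exact permutation p = 0.3, n = 3 per group).

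The α pool was also read relative to ITGB1. The summed FPKM of the 7 α members was 0.644, 0.690 and 0.568 of the ITGB1 level in uninduced libraries and 0.867, 0.783 and 0.769 in induced libraries. All induced ratios were higher, but ITGB1 itself did not overlap between the groups and the ratio was chosen after the values were seen, so no test is given. It takes ITGB1 as listed, without the reads given to ITGB1P1.

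Of the 16 other integrin subunits, 4 reached a mean of 1 FPKM and 0 were altered in limma, with 0 at an unadjusted p under 0.05. Over all tested genes 16.7% were altered, and 4 genes are too few to set against that share. The groups did not overlap for 2 of the 4, ITGA4 and ITGA10, against 39.9% of all tested genes. The 4 were ITGA4, a fibronectin and VCAM-1 receptor chain, ITGA8, an RGD-binding chain, ITGA10, a collagen receptor of cartilage, and ITGAE, an E-cadherin receptor chain of lymphocytes. ITGA4 went from 32.1 ± 4.58 to 27.7 ± 1.31 FPKM (SD, n = 3 per group), with a log2 fold change of -0.20 and a 95% interval of -0.47 to 0.07. ITGAE was listed at 50.0 ± 9.93 and 55.5 ± 11.4 FPKM (SD, n = 3 per group), and 427 of its exonic bases face HASPIN, a kinase gene of mitosis within it, listed as GSG2, that measured 2.06 and 1.82 FPKM. ITGA10 averaged 2.36 and 3.13 FPKM and ITGA8 averaged 1.63 and 1.06 FPKM. The remaining 12 lay under the filter, among them the leukocyte chains ITGAL, ITGAX and ITGB2, and ITGAM was listed at 0 in every library.

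The genes whose libraries followed ITGA2 and ITGA1 most closely were sought as the smallest root mean square difference of centred log2(FPKM + 1) over the 6 libraries. For ITGA2 they were TBX3 (0.0849), a T-box repressor, BAIAP2 (0.0880), a membrane-bending adaptor, and EGLN1 (0.0936), an oxygen-sensing prolyl hydroxylase. For ITGA1 they were LPPR4 (0.142), PLCB4 (0.175), a phospholipase C, and ZNF469 (0.204), a zinc finger gene. These are descriptions over 6 points that share the group difference and library scaling. The differences were smaller for ITGA2, but this measure also grows with a gene's own spread. That spread was larger for ITGA1 (SE 0.35 against 0.16), so the 2 sets of matches cannot be ranked by it.

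The matrix ligands of these receptors were read next. Of 26 tested ligand genes, 10 (38.5%) were altered, 3 higher and 7 lower. Over all tested genes the altered share was 16.7%, with 11.0% higher and 5.67% lower. The median log2 fold change of the ligand genes was -0.15. The count of altered ligand genes was 5 without uninduced library 1 and 2 without uninduced library 2 or induced library 1. All 7 collagens were below the uninduced range in every induced library, with log2 fold changes from -1.74 to -1.05, and 5 of them were altered. Over all tested genes, 39.9% had groups that did not overlap. COL4A1 and COL4A2, the chains of basement membrane collagen IV that α1β1 binds, fell by 1.74 and 1.36 on the log2 scale (limma adjusted p = 0.0269 and 0.0125). COL1A1 and COL3A1, the 2 that were not called and are named for that reason after their values were seen, had limma adjusted p = 0.0501 and 0.0553. Induced library 3 was the lowest library of its group for all 7 collagens, as it was for 4 of the 10 members, ITGA1, ITGA11, ITGB3 and ITGB5, and its part in these values was not tested beyond leaving it out.

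Of 9 tested chains of the laminins, the ligands of α3 and α6, LAMA4 and LAMB1 rose and 0 fell, a share of 22.2% beside 16.7% of all tested genes altered. LAMA4, the α4 chain of vascular and mesenchymal laminins, rose by a log2 fold change of 1.20 (from 9.27 ± 0.974 to 22.5 ± 1.23 FPKM, SD, n = 3 per group, limma adjusted p = 0.00212), and LAMB1 rose by 0.41 (limma adjusted p = 0.0236). Of 10 tested RGD and related ligands, 1 rose and 2 fell. POSTN, periostin, an αV ligand of remodelling tissue, measured 14.2, 53.4 and 54.5 FPKM in uninduced and 169.5, 214 and 169.2 FPKM in induced libraries. Its log2 fold change was 2.36 with SE 0.49 (limma adjusted p = 0.0236), and uninduced library 1 stood well below the rest of its group. CYR61, an αV ligand of the CCN family, fell by 1.37 on the log2 scale (limma adjusted p = 0.00186), and the other one that fell was FBN1, named after its values were seen. FN1, the fibronectin that α5β1 binds and which is named here after its values were seen, averaged 945 ± 208 and 947 ± 89.2 FPKM (SD, n = 3 per group), with a 95% interval of -0.40 to 0.44 for its log2 fold change.

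**Figure D4:**
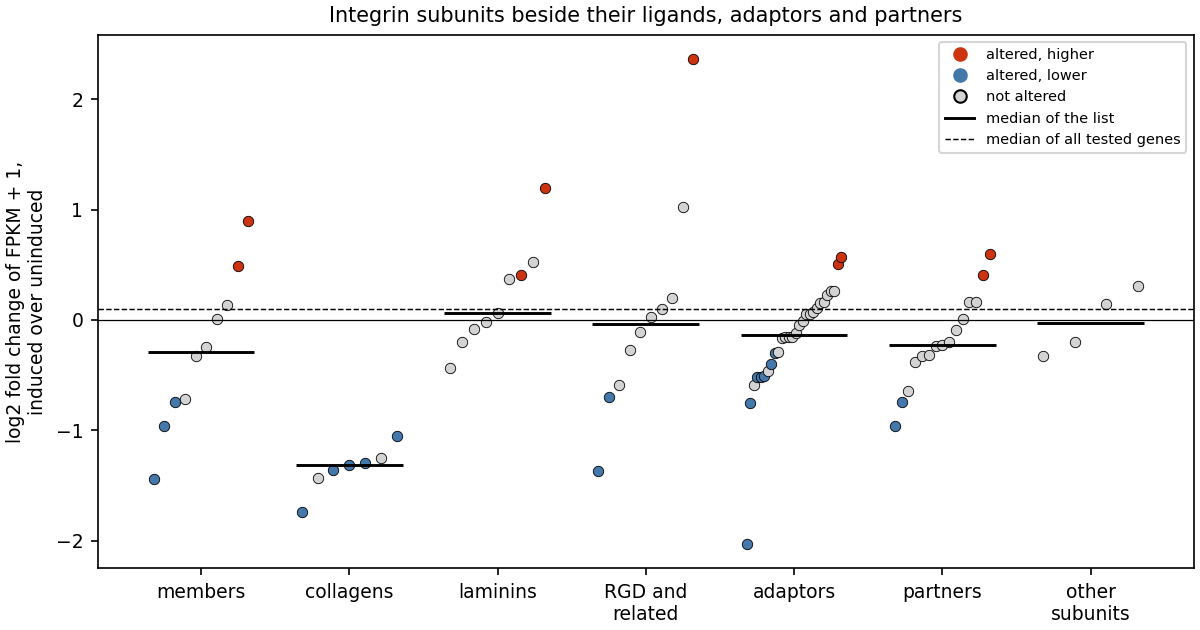
Log2 fold change of FPKM + 1, induced over uninduced, for each tested gene of the integrin members and of the lists of ligands, adaptors, partners and other subunits, red or blue where altered, with the list median as a bar and the median of all tested genes as a dashed line. All 7 collagens lie between -1.74 and -1.05, while the laminins lie on both sides of 0 and the members spread from -1.44 to 0.89.

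Inside the cell, 28 genes for proteins that bind integrin tails or sit in focal adhesions were tested. Of these, 9 (32.1%) were altered, 2 higher and 7 lower. Over all tested genes 16.7% were altered, with 11.0% higher and 5.67% lower. The median log2 fold change of the 28 was -0.14, and 5 were altered without induced library 3. LIMS2, which joins the kinase-like ILK and parvin in an integrin-bound complex, fell most. It measured 20.3, 20.8 and 11.5 FPKM in uninduced and 4.09, 3.37 and 2.84 FPKM in induced libraries, a log2 fold change of -2.03 with SE 0.24 (limma adjusted p = 0.00449). VCL, vinculin, which ties talin to actin, fell by 0.76 (limma adjusted p = 0.00396), and FERMT2, the kindlin that activates β1 and β3 tails in fibroblasts, fell by 0.52 (limma adjusted p = 0.0102). The other 4 that fell, named after their values were seen, were the actin crosslinkers FLNA, ACTN1 and ACTN4 and the parvin PARVA. PXN, the scaffold paxillin, rose by 0.51 (limma adjusted p = 0.0100), and PARVB, another parvin, rose by 0.57 (limma adjusted p = 0.0113). TLN1, a talin gene named after its values were seen, had a log2 fold change of -0.16 with a 95% interval of -0.47 to 0.15. The other talin gene, TLN2, was among the rows left out and was not read.

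Among 15 membrane partners of integrins, 2 rose and 2 fell, 26.7% beside 16.7% of all tested genes altered, with a median log2 fold change of -0.23. CD9, a tetraspanin that sits beside laminin-binding integrins, rose from 98.6 ± 11.1 to 149.9 ± 13.0 FPKM (SD, n = 3 per group), by 0.60 on the log2 scale (limma adjusted p = 0.0154). PLAUR, the urokinase receptor, rose by 0.41 (limma adjusted p = 0.0381), a call lost with a common upper quartile, without the trend, without the filter on low values and in 5 of 6 fits that left out a library, all but the one without induced library 1. CSPG4, the NG2 proteoglycan, fell by 0.96 (limma adjusted p = 0.0220), and TSPAN4, another tetraspanin, fell by 0.75 (limma adjusted p = 0.00629). The 4 calls became 2 without uninduced library 1 or induced library 1, and 1 without uninduced library 2 or induced library 3. TSPAN4 kept its call in each of these fits. CD9 lost its call without uninduced library 1 or 2 or induced library 1 or 3. CSPG4 lost its call without uninduced library 2, without induced library 1, 2 or 3, and without the filter on low values.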

How the data were processed

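RNA-seq was read from mitotic ERRAS cells in 6 libraries, 3 uninduced and 3 induced. The FPKM values were deposited by the authors as a single table, made with Trim Galore 0.3.0, TopHat2 on hg19 with Ensembl junctions, and Cufflinks. Its columns name the group and a number but not the sample. The table has 18 unnamed columns, which were not used, and 120 genes with more than 6 values, among them TLN2 and MFGE8, were left out, as was 1 header line among the rows. A second deposited table holds the authors' own cuffdiff comparison (group FPKM, fold changes, statistics, p and q values) and was not used.

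As these are not counts, limma 3.58.1 (R 4.3.3) was fitted to log2 of FPKM with a pseudocount of 1, keeping genes that averaged 1 FPKM or more, with a prior variance that depends on expression. P-values were two-sided and Benjamini-Hochberg adjusted across all 13993 genes kept. Fold changes on this scale understate those of low genes. Ratios and shares were compared by two-sided exact permutation over libraries. Alignment totals were not used here, and from the ratios of low values the relative depth was 0.847 to 1.17 times that of uninduced library 1. Named genes were all members, other subunits of at least 1 FPKM, and the 3 largest altered rises and falls of each other list. ITGB4 and ITGA2B, under 1 FPKM, were named outside this rule as partners of members. ITGAL, ITGAX, ITGB2 and ITGAM, also under 1 FPKM, were named only to describe the subunits under the filter. The members and lists were chosen with earlier results of these data known. GENCODE 44 in its GRCh37 version, a later annotation than the authors' of the same assembly, gave the locations. Alternatives were another pseudocount, other filters, quantile and upper-quartile scaling, no trend, a replicate block and leaving out libraries. Same-numbered libraries were not taken as pairs.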

Additional observations from a re-analysis of the deposited data

How the results depend on the processing

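Of the 10 integrin members, 5 were altered. Without a filter on low values the count was 2, with 29362 genes tested, and for partners it was 2 and for all genes 1518. Where a log2 fold change of 1 or more in size was also required, 1 member (ITGA1), 1 adaptor, 0 partners and 548 of all genes remained. Without both libraries numbered 3, a setting chosen after seeing the data, the counts were 1 member (ITGA1), 1 adaptor, 5 ligands, 0 partners and 400 genes. Leaving out 1 library at a time gave 0 to 5 members, 5 to 8 adaptors, 2 to 12 ligands, 1 to 3 partners and 860 to 1872 genes, and the other subunits stayed at 0 throughout. Partners were fewest without uninduced 2 or induced 3, adaptors without induced 3, and ligands without uninduced 2 or induced 1.

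Scaling changed the split of all genes: 1543 higher and 793 lower as deposited, 1044 and 1109 after quantile normalization, 921 and 1101 with a common upper quartile. ITGA5 turned negative with these scalings (-0.034 and -0.10) and ranged from -0.081 to 0.095 with 1 library left out, and ITGB5 ranged from -0.0047 to 0.26. The difference in the collagen-binding share, 1.13 percentage points, was -0.076 by medians and ranged from -0.94 to 2.65 with 1 library left out, reversing without uninduced 3 or induced 1. The other share differences kept their sign but ranged from 1.85 to 3.45 points (laminin-binding), -6.08 to -1.43 (RGD-binding, lowest without uninduced 1 and highest without uninduced 3) and -6.98 to -2.55 (ITGB1 of β, lowest without induced 3 and highest without uninduced 3). The cause was not tested.

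No correlation between the deviations of same-numbered libraries exceeded 0.1 (-0.003, 0.043 and 0.048), so the numbers were not taken as pairs, although 4 of 6 libraries correlated best with their own number. With the replicate block, 5 members (the same genes), 8 adaptors, 13 ligands, 4 partners and 2310 genes were altered. ACTN1, PLAUR, HRAS and PLK1 lost their calls there (limma adjusted p = 0.0709, 0.0530, 0.0526 and 0.0643), and COL1A1, LAMC1, EDIL3 and SDC1 gained one. The number of libraries limits what could be detected.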
